A study of Mus musculus with 24 samples.

Results

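Serpina3c, Serpina3g, Serpina3k, Serpina3n, Saa3, Lcn2, Hp and Orm1, here the Serpina3 and acute-phase genes, were followed in the inguinal fat of young mice. They are 8 of the 16118 genes of the deposited table and were picked out by their symbols. The list was chosen by name with group levels of these libraries already known, and no contrast or threshold is recorded for it. The levels of the 8 genes are therefore a description. Where calls of these genes are counted, they stand beside the share of all genes called, and nothing is drawn from them. All 8 passed the filter on low reads, which kept 16005 genes.

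Poly(A) RNA from inguinal white adipose tissue, which lies under the skin of the groin, was sequenced from 24 mice with 1 library each, in 6 groups of 4 animals. Males and females were taken at postnatal day 21 (p21), and at day 28 (p28) after standard weaning (SW, parted from the mother at p21) or delayed weaning (DW, still with the mother). The p21 animals also carry the SW label. They are called p21 here, and SW below means p28 animals only. The labels used here name no strain, genotype or litter, and no treatment other than weaning, so the spread measured is that between animals of unstated relation. All 7 adipocyte markers checked, Adipoq and Plin1 among them, were read in all 24 libraries, with summed normalised values of 13316.5 to 22626.8.

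Values are the deposited normalised values, which equal reads over a scaling factor for the library. Differences are between group means on the log2(value + 1) scale, which understates the change of genes with low values. A gene was called where limma, fitted to all 24 animals and all 16005 genes, gave a Benjamini-Hochberg adjusted p under 0.05. Reads in the listed genes ranged from 57600711 to 302145813 per library. 2 libraries held fewer detected genes than the others: p21 male 53 with 14054 and SW male 84 with 15497, against 15859 to 16066. In DW females 82 and 83, 13.2% and 13.7% of the reads were mitochondrial, against 19.2% and 23.6% in the other DW females. In bulk tissue, fewer cells of a type and less RNA per cell cannot be told apart.

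Acute-phase proteins are secreted proteins whose plasma levels shift during inflammation. The liver is their main source, and fat is known to produce several of them. Interleukin-6 acting through STAT3, interleukin-1 and tumour necrosis factor acting through NF-kB, C/EBP factors and glucocorticoids are the classic inducers of their genes. The Serpina3 genes of the mouse are a cluster of duplicated serine protease inhibitor genes that corresponds to the single human antichymotrypsin gene. Serpina3n inhibits granzyme B and leukocyte proteases, and Serpina3k is also known as kallikrein-binding protein. Saa3 is the serum amyloid A made outside the liver, by adipocytes and macrophages among other cells. Lcn2 (lipocalin 2) binds iron-carrying siderophores, Hp (haptoglobin) binds free haemoglobin, and Orm1 (orosomucoid 1, alpha-1 acid glycoprotein) is a plasma carrier and immune modulator that adipocytes also secrete.

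Positions and exon lengths are from GENCODE M21 (GRCm38), and the deposited start equalled the GENCODE start for 0 of the 8 genes, so the authors' gene models may differ. The 4 Serpina3 genes lay together on mouse chromosome 12: Serpina3c at chr12:104146382-104153870 on the minus strand, then, on the plus strand, Serpina3g at chr12:104236245-104241939, Serpina3k at chr12:104338486-104346144 and Serpina3n at chr12:104406729-104414329. Orm1 lay at chr4:63344560-63348163 (plus), Saa3 at chr7:46711998-46715700 (minus), Lcn2 at chr2:32384633-32388252 (minus) and Hp at chr8:109575128-109579172 (minus). The Serpina3 genes are close copies of each other. Serpina3k was identical to its neighbour Serpina3m at 91.8% of 1248 aligned coding bases, to Serpina3c at 86%, over 1245 bases, and to Serpina3n at 83.5%. A read can be told apart only where the copies differ. The 75 coding bases in which Serpina3k differed most from Serpina3c, Serpina3n and Serpina3m (bases 892 to 966 of its 1254 coding bases, counted from the A of the start codon) are shown for this reason, with capitals where a copy differs from Serpina3k.
Serpina3k: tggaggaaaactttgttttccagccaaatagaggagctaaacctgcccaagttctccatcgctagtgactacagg
Serpina3c: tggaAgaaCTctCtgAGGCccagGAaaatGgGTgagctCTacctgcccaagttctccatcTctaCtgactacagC
Serpina3n: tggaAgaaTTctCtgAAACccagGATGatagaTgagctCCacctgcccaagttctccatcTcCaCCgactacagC
Serpina3m: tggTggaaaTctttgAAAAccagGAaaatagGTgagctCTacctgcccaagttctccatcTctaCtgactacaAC
In this stretch Serpina3c differed from Serpina3k at 18 bases, Serpina3n at 20 and Serpina3m at 16. Over the whole coding sequence, 22% of the 50-base stretches of Serpina3k also occurred in a transcript of another gene. That share was 24.6% for Serpina3m, 12.2% for Serpina3g, 11.1% for Serpina3n and 7.15% for Serpina3c. It was 9.79% for Orm1, 2.84% for Saa3 and 0 for Lcn2 and Hp. How shared reads were counted is not given in the sources used here, so the split of reads between the Serpina3 copies, and between Orm1 and its relatives, is uncertain.

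RefSeq promoters (GRCm38.p6) matched 5 of the 8 genes: Serpina3c, Serpina3g, Serpina3n, Saa3 and Lcn2. The 250 bases before the start site were searched on both strands for a STAT motif (TTCNNNGAA), a C/EBP motif (TTNNGNAA) and an NF-kB motif (GGANTTTCC). Matches of the motifs can overlap. Of 32851 promoter windows of the same length, 7.02% held the STAT motif, 36.8% the C/EBP motif and 1.07% the NF-kB motif. Serpina3c and Serpina3n are shown because these 2 windows were nearly the same while the measured levels of the 2 genes differed, with capitals where the 2 differ or have no partner.
Serpina3c (chr12:104153873-104154122, minus strand): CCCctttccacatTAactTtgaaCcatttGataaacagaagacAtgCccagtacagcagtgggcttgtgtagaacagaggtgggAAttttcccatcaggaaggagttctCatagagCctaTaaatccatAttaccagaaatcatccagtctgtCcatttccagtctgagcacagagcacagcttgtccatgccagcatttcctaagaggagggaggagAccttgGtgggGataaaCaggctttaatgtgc
Serpina3n (chr12:104406458-104406707, plus strand): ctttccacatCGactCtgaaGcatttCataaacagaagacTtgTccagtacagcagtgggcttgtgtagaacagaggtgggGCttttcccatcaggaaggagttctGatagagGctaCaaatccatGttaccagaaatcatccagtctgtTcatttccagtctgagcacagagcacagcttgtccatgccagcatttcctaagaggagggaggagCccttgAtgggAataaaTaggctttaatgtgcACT
They were identical at 229 of 247 aligned bases (92.7%). Both held the C/EBP letters near the start site, first base at -53 in Serpina3c and -56 in Serpina3n, and Serpina3n held a further match at -227. Saa3 is shown because its window held 4 C/EBP matches, the most of the 5, with the matches in capitals.
Saa3 (chr7:46715677-46715926, minus strand): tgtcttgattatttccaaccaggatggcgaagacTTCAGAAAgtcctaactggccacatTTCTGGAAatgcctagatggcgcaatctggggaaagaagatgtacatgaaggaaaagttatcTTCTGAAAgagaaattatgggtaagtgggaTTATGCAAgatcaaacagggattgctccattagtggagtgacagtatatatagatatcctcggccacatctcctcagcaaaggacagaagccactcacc
The matches began at -216, -191, -129 and -99. Lcn2 held 1 C/EBP match, at -216. Serpina3g held 2 C/EBP matches and the only STAT match of the 5, which began at -33. The NF-kB letters were in none of these windows, as in nearly all promoters.

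Per kilobase of exon, the 8 genes covered a wide range in this fat depot. The median normalised value per kilobase over the 24 animals was 446.2 for Orm1, 293.2 for Hp, 60.5 for Serpina3n and 37.1 for Serpina3c. It was 2.40 for Serpina3g, 1.51 for Lcn2, 0.760 for Serpina3k and 0.228 for Saa3. The order thus ran from 2 abundant plasma carriers through 2 serpins to 4 genes with low levels. The plot of the 8 genes by animal shows the values that the following paragraphs describe.

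**Figure D1:**
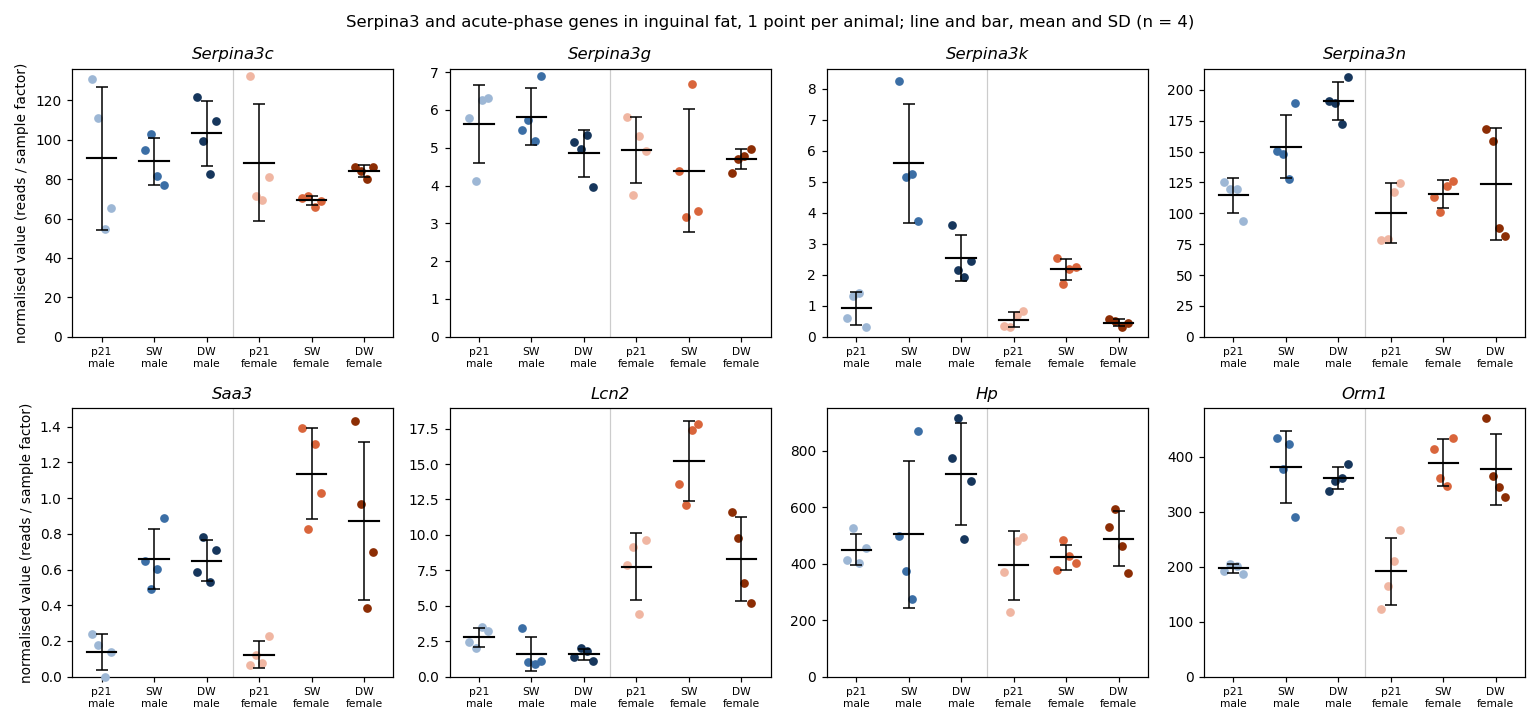
Normalised value (reads divided by a sample factor, linear axes from 0) of each of the 8 genes in 6 groups, with 1 point per animal, the mean as a line and the SD as a bar (n = 4). Serpina3k was lower in DW than in SW animals of both sexes, Saa3 and Orm1 were higher in all p28 groups than at p21, and Lcn2 was higher in females than in males.

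Delayed weaning was compared with standard weaning at p28 in each sex. Of the 8 genes, limma called 0 in males, where 0.256% of all genes were called, and 1, Serpina3k, in females, where 1.27% were called. The 0 in males compares with 2 of 8 at an unadjusted p under 0.05, and with 0 by edgeR and 0 by DESeq2. Serpina3k was called in males with the run of animal numbers as a covariate, and also without SW male 124 or without DW male 79 (1 gene each). SW male 124 forms a run of its own, so the run fit and leaving this animal out are not separate checks. For the test of whether the weaning difference differed between the sexes, limma, edgeR and DESeq2 called 0 of the 8, with 1 at an unadjusted limma p under 0.05, while 0.0187% of all genes were called by limma. The median difference of the 8 genes between DW and SW was 0.03 in males and -0.01 in females, against 0.00 and -0.03 over all genes tested.

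Serpina3k, the kallikrein-binding serpin, had the widest spread between groups among the 4 Serpina3 genes. Its normalised values were 8.25, 5.14, 5.25 and 3.72 in SW males (animals 78, 84, 85 and 124) and 3.62, 2.16, 1.94 and 2.43 in DW males (animals 79, 80, 86 and 87). The highest DW male lay just under the lowest SW male, so the groups did not overlap. In SW females (animals 73, 74, 75 and 81) they were 2.53, 1.71, 2.19 and 2.26, and in DW females (animals 76, 77, 82 and 83) 0.573, 0.499, 0.308 and 0.434. Every DW female was below every SW female. At p21 the values were 0.615, 1.31, 1.42 and 0.316 in males (animals 37, 38, 53 and 54) and 0.352, 0.329, 0.704 and 0.834 in females (animals 30, 36, 55 and 56). The p21 groups and the DW females overlapped each other at the bottom of the range, DW males and SW females overlapped in the middle, and SW males were on top.

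The means followed the same order: 5.59 ± 1.91 in SW males (SD, n = 4 here and below), 2.54 ± 0.746 in DW males, 2.17 ± 0.340 in SW females, 0.915 ± 0.536 in p21 males, 0.555 ± 0.253 in p21 females and 0.454 ± 0.112 in DW females. SW means were 2.20 times the DW mean in males and 4.79 times in females. The log2(value + 1) difference, DW minus SW, was -0.88 (SE 0.20) in males and -1.12 (SE 0.20) in females, and the 2 differed by -0.25 (SE 0.28). Both sexes thus had the lower value under DW. In the authors' deposited table the log2 fold change between DW and SW was -1.14 for males and -2.26 for females, without a pseudocount. Animals numbered 73 to 80 and 81 to 87 gave DW minus SW differences of -1.28 and -0.96 in males and of -1.02 and -1.25 in females, with 1 to 3 SW and 2 DW animals each. Without DW females 82 and 83 the female difference was -1.04 and was no longer called.

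Between p21 and p28, Serpina3k was called in SW males, SW females and DW males, and in none of these did the groups overlap. The p28 mean was 6.11 times the p21 mean in SW males, 3.92 times in SW females and 2.77 times in DW males. In DW females it was 0.818 times the p21 mean, with overlapping animals, and the gene was not called. Serpina3k was also lower in females than in males at p28, 2.57 times in SW and 5.59 times in DW animals, again without overlap. By edgeR the SW sex difference was not called. Since Serpina3k and Serpina3m share many stretches, the ratio of the 2 values within each library was also taken. It was 3.97 ± 0.767 in SW and 1.59 ± 0.680 in DW males, and 2.23 ± 0.840 in SW and 0.358 ± 0.0712 in DW females. The ratio of the copies was thus not constant across the groups. It carries the Serpina3k differences over, and both values hold the same unknown split of shared reads. The ratio therefore cannot show how reads were divided between the copies. Skeletal muscle markers varied widely between the fat samples, with summed values from 3.72 to 6614.2 and all 6 genes called higher than at p21 in SW and in DW males. The correlation of Serpina3k with the mean level of the muscle list was 0.61 over the 24 animals and 0.02 after group means were removed. For the endothelium list these values were 0.61 and 0.13, and for the macrophage list 0.51 and 0.03. The part of these cells in the Serpina3k levels was not tested.

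The other 3 Serpina3 genes were flatter. Serpina3n, the inhibitor of granzyme B, was the most abundant of the 4 per kilobase. Its values in males were 125.3, 119.6, 119.5 and 93.8 at p21, 150.8, 147.7, 127.8 and 189.2 after SW, and 191.1, 189.3, 172.5 and 210.4 after DW. In males the p21 animals were below all p28 animals. The male means were 114.5 ± 14.1, 153.9 ± 25.7 and 190.8 ± 15.5, and the difference from p21 was 0.42 (SE 0.20) in SW and 0.74 (SE 0.20) in DW males, of which limma called the second. The first was called only without DW females 82 and 83, whose removal changes the pooled error. The call in DW males was lost without p21 male 54 (0.64) and without DW male 87 (0.69). In DW females the animals fell apart into pairs, with 167.9 and 158.2 in animals 76 and 77 and 88.0 and 81.4 in animals 82 and 83, around a mean of 123.9 ± 45.5. The other female groups had 99.9 ± 24.3 at p21 and 115.4 ± 11.2 after SW, and all 3 female groups overlapped.

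The pairing of DW females decided the female values of Serpina3n. DW minus SW was 0.03 with all animals and 0.50 without animals 82 and 83, and DW minus p21 was 0.27 (SE 0.20) with them and 0.73 without them, where it was called. The female minus male difference among DW animals went from -0.69 (SE 0.20) to -0.22. It was not called with all animals and was called without animal 76 (-0.86), without animal 77 (-0.83) and with the run of animal numbers as a covariate. Within the runs 73 to 80 and 81 to 87, DW minus SW was 0.54 and -0.57 in females. The first run held 2 DW and 3 SW females, and the second held animals 82 and 83 and only SW female 81. Animals 82 and 83 also had lower summed macrophage markers, 291.1 and 288.0 against 503.7 and 537.3, as well as the lower mitochondrial share given above. The part of these in the Serpina3n values was not tested.

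Serpina3c, a serpin with high levels in fat, was steady at p28 and scattered at p21, with 131.0, 111.0, 54.9 and 65.5 in males and 132.2, 71.3, 69.2 and 81.0 in females. SW females had 70.2, 71.6, 65.8 and 69.1, and DW females 86.2, 84.1, 80.1 and 86.3. The p21 males with the higher Serpina3c also had the higher summed progenitor and fibroblast markers, 1769.0 and 1656.1 against 1042.0 and 1056.1. Over the 24 animals the correlation of Serpina3c with that list was 0.61, and after group means were removed it was 0.77, against 0.68 for the adipocyte and -0.78 for the B cell list. The part of these in the Serpina3c levels was not tested. The SW and DW females did not overlap, at 69.2 ± 2.46 and 84.2 ± 2.88. The difference, 0.28 (SE 0.21), was not called. Its error comes from the fit over all 6 groups, the scattered p21 animals included. In males the means were 89.1 ± 12.0 after SW and 103.3 ± 16.5 after DW, with overlap. Serpina3g, an intracellular serpin of immune cells, ranged only from 3.18 to 6.89 over the 24 animals, and its group means from 4.40 to 5.82. It was called in no comparison with all animals, and was called lower in SW females than in SW males without SW female 75 (-0.56). Its correlation with the T cell list was 0.61 (0.66 after group means were removed) and with the B cell list 0.63 (0.58), and all 11 genes of these 2 lists were read in every library. The part of these cells in its level was not tested.

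**Figure D2:**
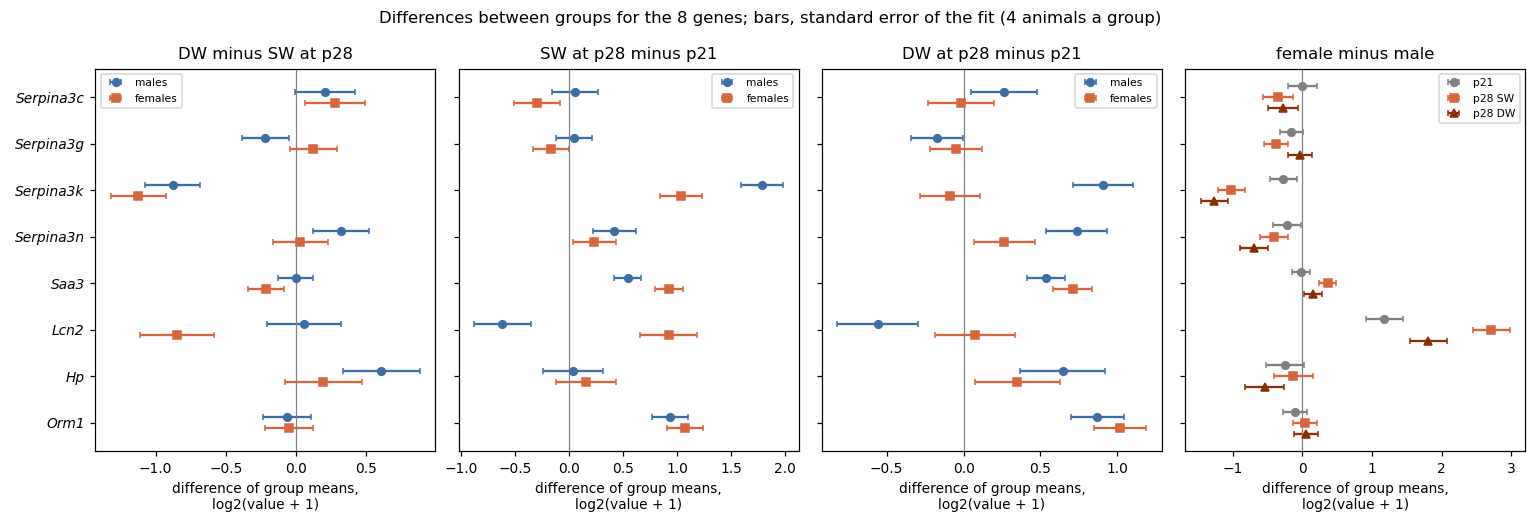
Difference of group means on the log2(value + 1) scale for the 8 genes, with the standard error of the fit as bars: DW minus SW at p28, SW minus p21, DW minus p21 (males circles, females squares) and female minus male in 3 settings. Serpina3k was negative in both sexes for DW minus SW (-0.88 and -1.12), and Orm1 and Saa3 were positive in all 4 p28 minus p21 differences.

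The p28 groups were each compared with p21 animals of the same sex, so that the SW and DW comparisons of a sex share their p21 animals. Of the 8 genes, limma called 3 in SW males (Serpina3k, Saa3 and Orm1), where 11.9% of all genes were called, and 4 in SW females (those 3 and Lcn2), where 11.6% were called. In DW animals it called 4 in males (Serpina3k, Serpina3n, Saa3 and Orm1), where 15.0% of all genes were called, and 2 in females (Saa3 and Orm1), where 12.1% were called. Saa3 and Orm1 were thus called in all 4 comparisons, higher at p28 each time. The median difference of the 8 genes was 0.24 in SW males, 0.58 in SW females, 0.59 in DW males and 0.17 in DW females, against 0.00 to 0.02 over all genes.

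Orm1 had the highest median per kilobase over all animals, although in p21 males its mean per kilobase, 254.1, was below that of Hp, 279.8. Its normalised value was near 200 at p21 and near 400 at p28. In males it was 192.3, 205.7, 202.2 and 187.5 at p21, 433.5, 377.1, 423.4 and 290.7 after SW, and 338.5, 356.3, 361.6 and 386.4 after DW. In females it was 123.6, 164.3, 210.9 and 266.6 at p21, 414.6, 361.2, 346.9 and 435.0 after SW, and 470.5, 365.6, 344.7 and 327.5 after DW. Every p28 animal was above every p21 animal of either sex. The p28 mean was 1.94 times the p21 mean in SW males, 1.83 times in DW males, 2.04 times in SW females and 1.97 times in DW females. DW and SW means differed by -0.06 (SE 0.17) in males and -0.05 (SE 0.17) in females. Orm2 and Orm3, its near copies, were far lower, with group means of 4.53 to 8.60 and 7.56 to 14.3, and of these only Orm2 passed the test, in SW females against p21 (0.81, SE 0.24, limma adjusted p 0.0318). That call was lost under 6 of the alternative settings.

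Saa3 had the lowest median per kilobase of the 8, with 0 to 218 reads per library. In DW females its mean per kilobase, 0.335, was above that of Serpina3k, 0.221. In males its values were 0.239, 0.179, 0.00 and 0.141 at p21, 0.650, 0.490, 0.605 and 0.888 after SW, and 0.585, 0.780, 0.529 and 0.707 after DW. The 0 reads in p21 male 53, the library with the fewest reads, allow a value of up to 0.0462 (3 reads, counting error only). In females they were 0.0640, 0.122, 0.0771 and 0.229 at p21, 1.39, 0.829, 1.30 and 1.03 after SW, and 1.43, 0.969, 0.387 and 0.699 after DW. No p28 animal was as low as a p21 animal. The p28 mean was 4.70 and 4.65 times the p21 mean in SW and DW males, and 9.25 and 7.08 times in SW and DW females. The female minus male difference was 0.37 (SE 0.13) in SW animals and was called only without DW females 82 and 83. DW minus SW was 0.00 in males and -0.22 (SE 0.13) in females. The female value was 0.04 without DW females 82 and 83, and was called without DW female 76 (-0.35). The liver forms Saa1 and Saa2 stayed at or below 0.288 in every library, and neither was called in any comparison.

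Macrophage markers moved with Saa3. All 7 macrophage genes checked were read in every library. Their summed values ranged from 154.5 to 270.8 in p21 males, 338.7 to 516.4 in SW and 391.1 to 457.2 in DW males, and from 188.0 to 220.7 in p21 females, 423.6 to 492.2 in SW and 288.0 to 537.3 in DW females. limma called 4, 5, 7 and 5 of the 7 higher at p28 in SW males, SW females, DW males and DW females. Over the 24 animals, the correlation of Saa3 with the mean macrophage level was 0.89, and 0.66 after group means were removed. For Orm1 the same 2 values were 0.81 and 0.07, and for Serpina3n 0.64 and 0.71. These points share their libraries, and the part of macrophage content in the levels of these genes was not tested.

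Hp, the haemoglobin scavenger, had overlapping groups throughout and was called in no comparison. Its means in males were 449.4 ± 55.4 at p21, 503.2 ± 259.8 after SW and 716.9 ± 179.1 after DW, and in females 393.6 ± 122.4, 422.0 ± 45.2 and 488.1 ± 97.3. SW males were the most scattered, with 498.0, 373.1, 273.7 and 867.8. DW minus SW was 0.61 (SE 0.28) in males and 0.19 (SE 0.28) in females. When the fit held only p21 and DW males, DW males against p21 males was called (0.64). Over the 24 animals Hp and Serpina3n had a correlation of 0.73, and of 0.61 after group means were removed, the only pair among the 28 with both over 0.60.

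Females were compared with males at each stage. Of the 8 genes, limma called 0 at p21, where 0.356% of all genes were called, and 2, Serpina3k and Lcn2, both in SW animals, where 3.54% were called, and in DW animals, where 2.46% were called. At p21, 1 of the 8 had an unadjusted p under 0.05, which was Lcn2, and it was called by DESeq2 but not by edgeR. The difference between the sexes in the change from p21 to p28 SW was called for 1 of the 8, Lcn2, where 1.03% of all genes were called.

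Lcn2, the siderophore-binding lipocalin, was the gene with the largest female excess of the 8. Male values were 2.45, 2.03, 3.48 and 3.22 at p21, 3.40, 1.06, 0.862 and 1.11 after SW, and 1.39, 2.03, 1.78 and 1.09 after DW. Female values were 7.90, 9.12, 4.43 and 9.61 at p21, 13.6, 12.1, 17.4 and 17.8 after SW, and 11.6, 9.81, 6.59 and 5.17 after DW. Every female was above every male. SW females were above all other animals, while p21 and DW females overlapped. Female means were 2.78 times the male mean at p21, 9.47 times after SW and 5.27 times after DW. DW females had 8.29 ± 2.93 and SW females 15.3 ± 2.83, a difference of -0.85 (SE 0.26) that was not called with all animals and was called without DW female 76 (-1.01). The difference between SW females and p21 females, 0.92 (SE 0.26), was called, but not without p21 female 55 (0.71), SW female 75 (0.85) or SW female 81 (0.84), and not by edgeR or with a pseudocount of 0.1. Within the runs 73 to 80 and 81 to 87, DW minus SW in females was -0.39 and -1.46. The first run held 2 DW and 3 SW females, and the second held DW females 82 and 83 and only SW female 81. SW males were 0.62 lower than p21 males (SE 0.26), which was called only without SW male 78 (-0.90).

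Mammary epithelial markers moved with Lcn2. The inguinal fat pad of the mouse surrounds mammary gland, and all 8 mammary genes checked (Krt8, Krt18, Krt19, Krt14, Krt5, Epcam, Csn3 and Elf5) gave values in every group. Krt18 and Epcam were read in all 24 libraries, and Krt14, Krt5 and Elf5 had 0 reads in 6 libraries each. Their summed values were 41.6 to 159.4 in p21 females, 257.3 to 355.9 in SW females and 98.3 to 215.0 in DW females. In males the medians were 1.64 to 2.94. limma called 6 of the 8 higher in SW females than in p21 females, and 8 of the 8 higher in females than in males in SW and in DW animals, while 0 were called for DW against SW females. Epcam, for one, was 37.3 in SW females and 16.9 in DW females (difference -1.15, SE 0.41, limma adjusted p 0.169).

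The correlation of Lcn2 with the mean level of the mammary list was 0.95 over the 24 animals and 0.79 after group means were removed, the highest of the 11 marker lists. Among males, the 3 with summed mammary values above 10 were SW male 78 (41.0), p21 male 54 (19.5) and DW male 86 (11.0). SW male 78 also had the highest Lcn2 of its group (3.40), and DW male 86 the second highest of its own (1.78), but p21 male 53, with 0.339, had the highest Lcn2 of all males (3.48). The neutrophil list, another known source of Lcn2, was low, with summed values of 3.72 to 43.2, and in females much of the sum was Ltf (8.47 to 20.1 on average), which mammary epithelium also makes. Its correlation with Lcn2 was 0.62, and 0.06 after group means were removed. The part of epithelial content in the Lcn2 differences was not tested.

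**Figure D3:**
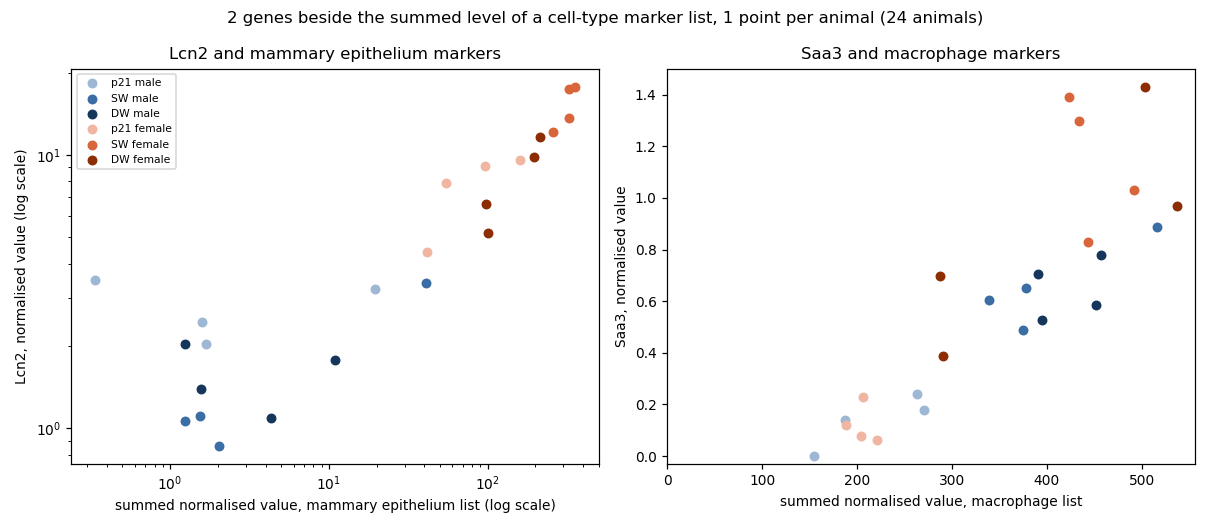
Lcn2 against the summed normalised value of 8 mammary epithelial markers (both axes log) and Saa3 against that of 7 macrophage markers (linear axes), 1 point per animal, coloured by group (24 animals). SW females had both the highest Lcn2 and the highest mammary sums (257.3 to 355.9), and p21 animals had both the lowest Saa3 and the lowest macrophage sums (154.5 to 270.8).

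Each gene's nearest neighbours in pattern were sought among 13070 other genes by Pearson's r over the 24 animals, as a description. Among the nearest to Serpina3k were Sh3bp5 (0.816) and Chrna2 (0.805), with r of 0.415 and 0.251 after group means were removed, so that the likeness lay mostly in the group means. Nearest to Lcn2 were Sox9 (0.972), Wwc1 and Atp6v1b1, and the value for Sox9 was 0.798 after group means were removed. Nearest to Saa3 were Igsf6 (0.921), Fcer1g and Hexa, and nearest to Orm1 were Scd1 (0.934), Rbp4 and Mup11. Serpina3n was nearest to Itsn2 (0.884), Serpina3c to Glt8d2 (0.889), Hp to Rarres2 (0.755) and Serpina3g to Tmem108 (0.745). Among the 8 genes themselves the closest pair was Saa3 and Orm1 (0.83, and 0.28 after group means were removed).

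The remaining genes of the acute-phase and serpin pathways were taken from 7 lists with 119 genes, of which 103 were tested. For DW against SW limma called 0 of 103 in males and 0 in females, with 9 and 14 at an unadjusted p under 0.05. edgeR called 0 in both, and DESeq2 called 1 in males and 0 in females. For p28 against p21 limma called 13 higher and 3 lower in SW males (15.5% of the 103), 12 higher and 6 lower in SW females (17.5%), 13 higher and 5 lower in DW males (17.5%), and 5 higher and 4 lower in DW females (8.74%). Of all genes, 11.9%, 11.6%, 15.0% and 12.1% were called in the same order. Between the sexes it called 1 gene at p21 (0.971%), 4 in SW (3.88%) and 5 in DW animals (4.85%). The shares of all genes there were 0.356%, 3.54% and 2.46%, and nothing is drawn from these differences. Of the 73 calls in all comparisons, 54 were lost in at least 1 alternative setting and 19 were kept in every one.

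Among the other clade A serpins, 12 were tested and 2 rose in SW males against p21, where 11.9% of all genes were called: Serpina3j and Serpina3m. Serpina3j, a further copy in the cluster, was 2.32, 3.16, 2.44 and 0.602 in SW males and 0.259, 0.130, 0.00 and 0.0332 at p21, which did not overlap (1.42, SE 0.24, limma adjusted p 0.000678). DW males had 0.596 ± 0.247 against a mean of 2.13 in SW males, and the overlap came from SW male 124 (0.602). SW females had 0.808 ± 0.185 (lowest 0.537) and DW females 0.249 ± 0.192 (highest 0.519), without overlap. The mean of Serpina3j was thus lower under DW in both sexes, as for Serpina3k, but limma called Serpina3j for DW against SW in neither sex. Serpina3m had a mean of 1.69 in DW males and 0.789 in p21 males (0.58, SE 0.14, limma adjusted p 0.00691). In SW males its difference of 0.42 lost the call in 11 of the alternative settings. None of the 12 was called in females.

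Among the 24 other acute-phase genes tested, the fibrinogen chains were largely a female signal. Fgb was 15.1, 8.28, 12.8 and 9.78 in SW females and 12.3, 8.15, 3.90 and 5.40 in DW females. In males it had 0 reads in all 4 p21 animals (up to 0.0462 in the shallowest library), and at p28 the highest value was 0.946, in SW male 78, one of the 3 males with raised mammary sums. Fgb was higher in females by 3.36 (SE 0.29, limma adjusted p 3.34e-08) after SW and by 2.92 (SE 0.29, limma adjusted p 1.61e-06) after DW. Fgg had the same order, with 18.8 in SW females and 0.602 in SW males, and its reads in males were also in animals 54, 78 and 86. Chil1, a chitinase-like protein, averaged 3.74 in SW females against 0.206 in their male counterparts (1.97, SE 0.24, limma adjusted p 2.92e-06). These genes have the same groups high as the mammary markers, whose part in them was not tested.

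Ptx3, the long pentraxin, fell in SW males from 2.81 at p21 to 0.949 (-0.96, SE 0.19, limma adjusted p 0.00212) and was higher in females than in males at p28, by 1.35 after SW and 0.90 after DW (limma adjusted p 2.10e-05 and 0.00675). Itih4, an inter-alpha-trypsin inhibitor heavy chain, fell in females from 18.4 at p21 to 8.50 after SW (-1.02, SE 0.17, limma adjusted p 0.000312) and to 7.64 after DW (-1.15, SE 0.17, limma adjusted p 0.000233). Itih3, a related heavy chain, was also called lower in all 4 comparisons with p21, with a mean of 3.70 in p21 males and 2.17 after SW. Ceruloplasmin, Cp, rose from 145.6 to 201.0 in SW and 196.8 in DW males and from 149.1 to 201.5 in SW females. The endotoxin co-receptor Cd14 was called higher in the same 3 comparisons, for one at 5.60 in SW and 2.65 in p21 males. The complement genes were C3, called higher in SW males (1950.5 against 1313.4), and Cfb, called higher in DW males (1.97 against 0.685) and DW females (2.01 against 0.935). Crp was called higher in SW females, but at 0.221 against 0.0504. Of these genes only Itih4, Ptx3, Fgb and Chil1 had a call that was kept in every setting. So the acute-phase genes outside the 8 went both ways, and 4 of the 28 listed (Apcs, Fga, Pzp and Ambp) were not analysed here.

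Few inducers and receptors were called, in short lists. For p28 against p21, 11.6% to 15.0% of all genes were called, so few calls here do not show flat levels. Of 9 cytokine ligands tested, only Il1a was called, in SW males against p21 (0.32, SE 0.09), and the call was lost in 5 settings, edgeR among them. Il6 stayed at or below 0.238 in every library. Of 10 receptors, Il6ra (lower in SW females) and Il11ra1 (lower in DW males and females) were called against p21. In females the Il11ra1 difference of -0.52 was -0.17 without DW females 82 and 83, and the Il6ra call was lost in 7 settings. Of 18 signalling and transcription factors, only Cebpb was called, at 5.14 in DW males and 11.1 in p21 males. Stat3 ranged only from 93.1 to 126.9 over all 24 animals. Of 13 glucocorticoid receptor targets, Angptl4, a lipoprotein lipase inhibitor, rose in males from 147.8 at p21 to 342.0 after SW and 351.2 after DW (1.21 and 1.24, SE 0.26 each, limma adjusted p 0.00423 and 0.00332). In SW females Angptl4 was also called, at 245.3 against 148.2, with a limma adjusted p of 0.0484. The call in SW females was lost in many settings, among them edgeR, only the compared groups and several fits that left out 1 animal. Other targets were called in both directions. Cdkn1a (59.8 against 100.2) and Hif3a (2.92 against 7.90) were lower in SW females than at p21, and Sult1a1 (232.8 against 154.5) was higher in DW males. Sgk1 was lower in DW females than in DW males (65.1 against 97.7). These 4 calls were lost in 5 to 7 settings each. Fkbp5 was called higher in DW males (79.9 against 32.3) and lower in SW females (20.8 against 53.7), both against p21, and each of these calls was lost in some settings.

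From the list of binding partners, receptors and proteases, 17 genes were tested. Being on that list does not make a gene a target of the 8. Of the 17, 6 rose in SW males against p21, where 11.9% of all genes were called: Cd163, Ctsb, Ctsl, Prtn3, Gzmb and Hmox1. Cd163, the macrophage receptor for haptoglobin bound to haemoglobin, rose in DW males from 44.7 at p21 to 148.3 (1.95, SE 0.37, limma adjusted p 0.00197). Gzmb, the granzyme that Serpina3n inhibits, rose from 0.343 to 1.80 in SW males (1.06, SE 0.24, limma adjusted p 0.00550) and from 0.269 to 1.63 in SW females (1.02, SE 0.24, limma adjusted p 0.00543). Hmox1, which breaks down haem, rose in SW females from 26.0 to 40.5 (0.62, SE 0.15, limma adjusted p 0.00672) and in DW males from 25.2 to 40.8 (0.67, SE 0.15, limma adjusted p 0.00471). Ctsb, a lysosomal protease, rose in SW females from 992.6 to 1437.2 (0.53, SE 0.13, limma adjusted p 0.00788). Ctsl, another lysosomal protease, and Prtn3, a neutrophil protease, were also called higher in DW males, at 479.8 against 335.7 and 0.802 against 0.351. Of the receptors, Lrp1 and Tlr4 were called higher in DW males (355.3 against 196.0 and 13.6 against 8.74), and Tlr2 in SW and DW females (7.07 and 7.36 against 5.07). Scarb1 was called lower in DW females (129.2 against 185.3), and Klkb1, plasma kallikrein, lower in DW males at a level of 0.0488 against 0.185. Each call in the last 3 sentences was lost in at least 3 settings. The rises came with the higher macrophage markers given above, whose part was not tested.

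**Figure D4:**
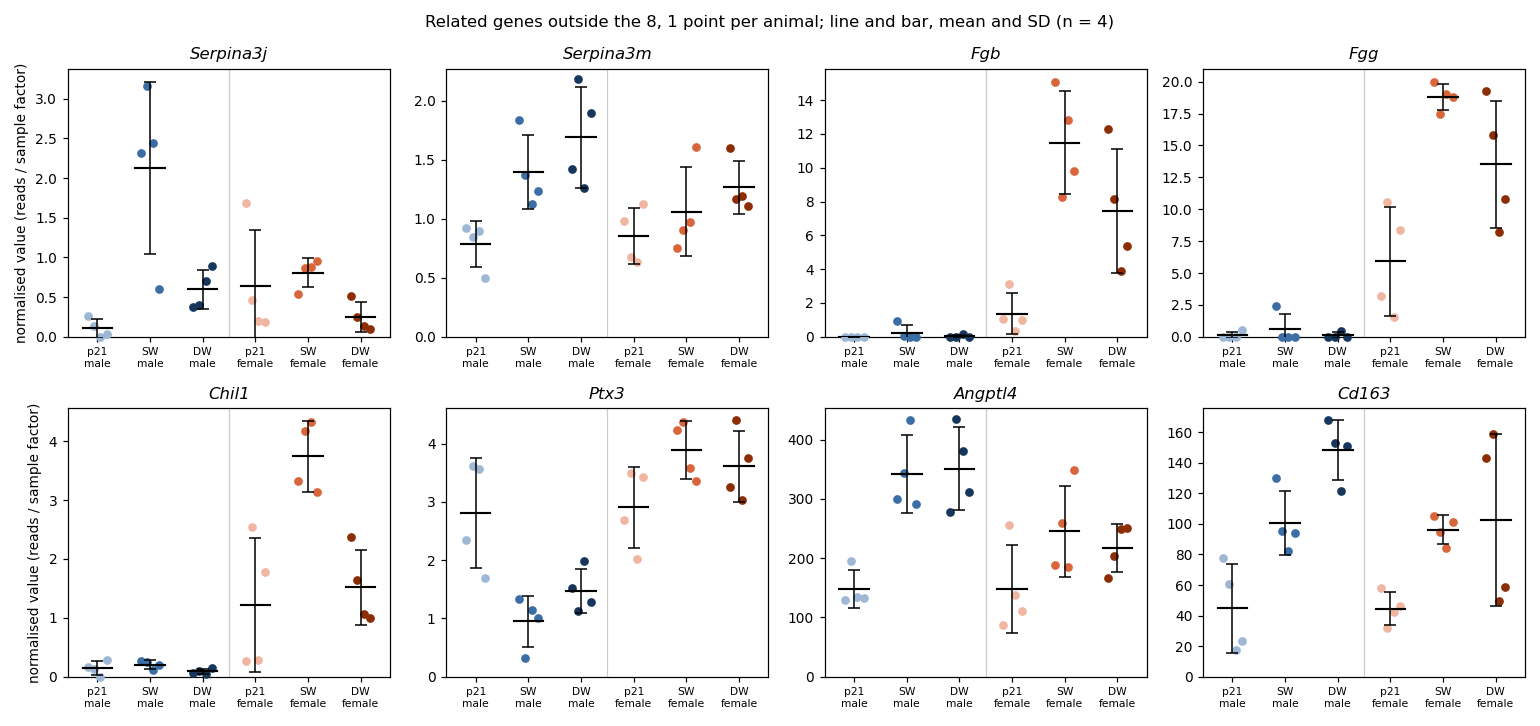
Normalised value of 8 genes from the pathway lists (linear axes from 0), with 1 point per animal in 6 groups, the mean as a line and the SD as a bar (n = 4). Serpina3j had its highest mean in SW males (2.13), and Fgb, Fgg and Chil1 were near 0 in most males.

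Hepatocyte markers other than Alb were read at low levels. Of 8 hepatocyte markers listed, 6 were analysed here. Apoh and Tat had 0 reads in 8 libraries each and never exceeded 0.221. Apoa1 and Ahsg had 0 reads in 1 and 2 libraries and reached 0.505 and 0.152. Apoa2 was read in all 24 libraries, at 0.170 to 1.33. Alb was the exception, at 15.7 to 59.6, and its mean was highest in DW females (45.8), where limma called it higher than in SW females. The correlation of the hepatocyte list with the 8 genes lay between -0.26 and 0.44. The part of liver tissue in these levels was not tested. Of the 119 listed genes, Ctsg was in the table but below the filter on reads.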

How the data were processed

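Poly(A) RNA of 24 mice was measured in 6 groups of 4, with libraries made with the KAPA mRNA HyperPrep kit and read on a NovaSeqXPlus, per the labels. The submitters' processing notes name fastp, HISAT2, featureCounts, DESeq2 1.38.3 and mm10, and the annotation, strand setting and scaling formula are not given in the sources used here. The authors deposited a normalised signal per gene, and dividing it by the value of 1 read gave whole reads for 100% of values (tolerance 0.001 reads). Of 16208 rows, 90 repeated rows were left out. The deposited scaling was 0.972 to 1.04 times TMM scaling.

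From the deposited signal, log2(value + 1) was computed and fitted with limma 3.58.1 (R 4.3.3; 1 coefficient per group, trended variance, 18 residual degrees of freedom) for the 16005 genes that passed filterByExpr with a minimum count of 10. There were 11 comparisons, and p-values were Benjamini-Hochberg adjusted over all genes tested. The log2 fold changes quoted from the authors' deposited table were copied, and the p-values in the authors' table were not used. Intervals and floors cover counting error only.

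The 8 genes and the gene lists were chosen with earlier results of these data known. Named were the 8 genes, list genes called in a comparison or without reads, defining markers, and for each of the 8 the 3 genes nearest by Pearson's r among 13070 genes whose log2(value + 1) averaged 1 or more, of which 1 is not reported here. The 24 animals were separate, and nothing says whether they came from separate litters. The p21 libraries have titles that say p28, and their age label and description, which say p21, were followed. One p21 female has 65 in its title and 56 in its description, and 56 was used. Alternatives were edgeR 4.0.16 and DESeq2 1.42.0 on the recovered reads, TMM-rescaled values, no filter, a pseudocount of 0.1, only the compared groups, the run of animal numbers as a covariate, without p21 male 53 and SW male 84, and each animal left out. Leaving out DW females 82 and 83 was added after seeing the data. The code was tested on simulated data.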

Additional observations from a re-analysis of the deposited data

Results flagged for a closer look

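Lcn2 in SW male 78 was 3.40, against 0.862 to 1.11 in the other SW males, a gap over 0.829 of the range of its group. It was the only one of 48 groups of 4 animals with such a gap. Chance flags about 1 group in 20, so that 1 flag is fewer than chance alone would give over 48 groups.

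For Lcn2, the change from p21 to p28 SW in females minus that in males was 1.54 (SE 0.37) in the limma interaction. Since Lcn2 was chosen with these levels known, the value is a description and supports no finding. Over the 16 fits that left out 1 animal it ranged from 1.32 to 1.82 and was no longer called in 11 of them, nor by edgeR or with a pseudocount of 0.1. Mammary markers moved with the same groups, and their part in the difference was not tested.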

How the results depend on the processing

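Of 88 differences of the 8 genes, 72 stayed on their side of the threshold in all settings run and 16 crossed it in some. Of the 8, the number called went from 0 to 1 for DW against SW males with the run of animal numbers as a covariate. It went from 1 to 0 for DW against SW females without DW females 82 and 83. It went from 0 to 1 for females against males at p21 by DESeq2, on TMM-rescaled values, with the run covariate and without DW females 82 and 83, and from 2 to 1 in SW animals by edgeR. For the sex by age interaction it went from 1 to 0 by edgeR, with a pseudocount of 0.1, with only the compared groups and without p21 male 53 and SW male 84. Leaving out 1 animal gave 0 to 1 for DW against SW males, 1 to 3 for DW against SW females, 0 to 1 for the sexes at p21 and 0 to 1 for the sex by age interaction.

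Of the list genes, those called for DW against SW males went from 0 to 1 by DESeq2, 3 with only the compared groups and 1 with the run covariate. For SW males against p21 they went from 16 to 8 with only the compared groups and 8 without p21 male 53 and SW male 84, and for SW females from 18 to 11 by edgeR. For DW males against p21 they went from 18 to 9 without p21 male 53 and SW male 84, and for DW females from 9 to 3 with only the compared groups and 15 without those animals. For the sexes at p21 they went from 1 to 0 by edgeR, 2 by DESeq2, 2 with a pseudocount of 0.1 and 0 with only the compared groups. For the sex by age interaction they went from 2 to 0 by edgeR, 0 with a pseudocount of 0.1 and 1 without p21 male 53 and SW male 84. Leaving out 1 animal gave 0 to 1 and 0 to 8 for DW against SW in males and females, 10 to 16 and 9 to 16 for SW against p21, 6 to 16 and 5 to 15 for DW against p21, 1 to 3, 4 to 7 and 4 to 12 for the sexes at p21, in SW and in DW animals, and 2 to 4 for the sex by age interaction. The Fgb sex by age difference, 2.23, was -4.86 by edgeR and -4.26 by DESeq2, with 0 reads in all 4 p21 males. The cause was not tested for this change or for the others. The run covariate was not run for p28 against p21. No paired analysis was possible because animal numbers are not shared between groups.

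Depth limits Saa3 most, with 0 to 218 reads per library, and paralog reads limit the Serpina3 genes.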
